A study of Mus musculus with 6 samples.

Results

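Adipokines are proteins that fat cells secrete and that act on other tissues or within the fat pad. The 10 adipokine genes described here are Adipoq, Lep, Retn, Cfd, Rbp4, Nampt, Rarres2, Apln, Nrg4 and Lcn2. They were chosen by symbol, as genes known to encode such proteins, and each was matched through its Ensembl identifier to 1 of the 35122 rows of the count table. All 10 passed the filter on low counts, which left 13925 genes for testing.

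RNA-seq was performed on the adipocyte fraction of epididymal fat, the floating layer left after collagenase digestion, of 3 control and 3 aPU.1KO male C57BL/6 mice fed standard chow, with 1 library per mouse. Both groups were 10 to 11 months old by their labels, and older by the paper's text. Both groups are homozygous for the floxed PU.1 allele (PU.1 fl/fl), in which loxP sites flank a single exon of Spi1, the gene for the ETS transcription factor PU.1. The aPU.1KO mice carry in addition AdipoqCre, so that Cre is made from the promoter of adiponectin, itself 1 of the 10 genes, in cells that express it. The controls were littermates by the paper's account. Mice are numbered 1 to 3 within each group in the order of their labels, and these numbers do not pair mice across groups.

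Adiponectin, leptin and resistin are the best known products of white adipocytes. Adiponectin acts through the receptors AdipoR1 and AdipoR2 and promotes insulin sensitivity and fatty acid oxidation, and it circulates as multimers that are assembled in the endoplasmic reticulum. Leptin reports the size of the fat stores to the brain, and its transcript is most abundant in large, lipid-filled adipocytes. Complement factor D (adipsin, from Cfd) is the protease of the alternative complement pathway, and resistin (Retn) in mice is made mainly by adipocytes.

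Total counts were 22770714 to 69283842 in the control libraries and 20550252 to 24310144 in the aPU.1KO libraries. Spi1, the targeted gene, had normalised counts of 24.3, 6.35 and 26.7 CPM (read counts scaled to a common library size with TMM factors) in control mice 1, 2 and 3 and of 3.20, 1.22 and 4.17 CPM in aPU.1KO mice 1, 2 and 3, and control mouse 2 was far below the other two controls. Adipocyte markers summed to between 43600 and 47000 CPM in control and between 52700 and 58200 CPM in aPU.1KO mice, with 10 of 10 markers detected in every library, so the defining markers of the labelled cell type were present. The 12 macrophage markers summed to 1491, 442.6 and 1443 CPM in the control mice and to 310.6, 227.7 and 288.2 CPM in the aPU.1KO mice, so control mouse 2 lay closest to the aPU.1KO mice. The 9 markers of fat progenitor cells summed to between 1340 and 1800 CPM in control and between 732 and 1050 CPM in aPU.1KO mice. The part of these other cells in the adipokine differences was not tested beyond the fits given below, and in bulk RNA fewer cells of a type and less RNA per cell cannot be told apart.

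The proximal promoters of 4 genes are printed to show what lies in front of them: Lep, the 1 gene wholly lower in aPU.1KO mice, Adipoq, whose promoter drives Cre, and Cfd and Retn, which had the largest log2 fold changes by edgeR with TMM factors. The sequences are from RefSeq on GRCm38.p6, read 5′ to 3′ on the plus strand, which is the strand of all 4 genes, and run up to the RefSeq transcription start, except that the last base before the start of Lep, which GENCODE counts as exon, is left off. Capitals mark matches, on either strand, to 1 of 6 motifs. The core of PU.1 type ETS sites was searched as GAGGAA, and the C/EBP motif as TTGCNNAA. The letters of the TATA box were TATAA and those of the CCAAT box were CCAAT. The E-box was searched as CACGTG, and the last motif was DR1, the direct repeat bound by PPARγ with RXR. The Lep window is chr6:29059971-29060219, the Adipoq window chr16:23146286-23146535, the Cfd window chr10:79890603-79890852 and the Retn window chr8:3655520-3655769.
Lep: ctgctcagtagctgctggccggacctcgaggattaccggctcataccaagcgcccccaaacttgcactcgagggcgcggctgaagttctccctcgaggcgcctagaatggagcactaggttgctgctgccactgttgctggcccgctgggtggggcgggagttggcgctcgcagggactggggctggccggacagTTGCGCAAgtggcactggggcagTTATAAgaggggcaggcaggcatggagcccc
Adipoq: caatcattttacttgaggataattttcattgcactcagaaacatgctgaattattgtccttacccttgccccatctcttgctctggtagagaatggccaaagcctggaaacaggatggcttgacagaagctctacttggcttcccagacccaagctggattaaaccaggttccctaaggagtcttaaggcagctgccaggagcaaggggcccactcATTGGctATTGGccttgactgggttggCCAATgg
Cfd: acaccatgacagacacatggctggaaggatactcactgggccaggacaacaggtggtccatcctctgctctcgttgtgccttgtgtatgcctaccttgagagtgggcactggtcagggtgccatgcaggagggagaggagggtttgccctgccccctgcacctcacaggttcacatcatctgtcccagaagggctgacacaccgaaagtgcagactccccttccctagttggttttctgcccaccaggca
Retn: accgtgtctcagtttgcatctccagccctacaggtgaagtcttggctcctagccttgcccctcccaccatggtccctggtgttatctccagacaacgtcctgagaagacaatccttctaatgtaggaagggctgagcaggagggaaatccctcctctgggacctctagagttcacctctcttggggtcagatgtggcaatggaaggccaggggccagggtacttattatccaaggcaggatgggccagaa

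Lep carried a C/EBP match from position -55 to -48 and overlapping TATA box matches on both strands from -32 to -27, counted back from the RefSeq transcription start. Adipoq carried 3 CCAAT box matches, from -34 to -30, -27 to -23 and -7 to -3, and neither Cfd nor Retn held any of the 6 motifs. Of all 32851 promoter windows, each searched over 250 bases, 9.56% held the C/EBP motif, 22.8% the TATA box, 33.8% the CCAAT box, 23.3% the PU.1 type motif, 6.02% the E-box and 0.0335% the DR1 motif. RefSeq windows were found for 9 of the 10 genes, all but Rarres2. Among these 9 the PU.1 type motif was found in Lcn2 only, from -20 to -15 on the minus strand. Rbp4 and Lcn2 also held C/EBP matches, at -128 to -121 and -216 to -209. The Lcn2 window lies within the annotated gene, with 197 of its 250 bases in exons, and the Rbp4 window with the C/EBP match, 1 of 2 for that gene, has 124 bases in exons. These are matches of letters within the windows, and nothing was measured on them.

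Of the 10 adipokine transcripts, Adipoq, Retn, Cfd, Rbp4 and Nampt had higher counts in every aPU.1KO mouse than in any control mouse, and Lep had lower counts in every aPU.1KO mouse. The groups overlapped for the other 4 genes. Among all genes tested, 16.7% lay wholly higher and 15.5% wholly lower in this way, 32.1% together. No adipokine gene passed edgeR's quasi-likelihood test at an adjusted p under 0.05, which called 0.237% of all genes, but 8 of the 10 had an unadjusted p under 0.05 (25.7% of all genes), 6 of them higher (11.9% of all genes) and 2 lower (13.7% of all genes). DESeq2, the tool named in the study's methods, called 5 of the 10 (13.4% of all genes), all 5 higher (4.69% of all genes), namely Adipoq, Retn, Cfd, Rbp4 and Nrg4, and 0 of the 10 lower (8.73% of all genes). Spi1, the targeted gene, had a log2 fold change of -2.75 (SE 0.64). DESeq2 called it (adjusted p = 0.0001155), but edgeR did not (adjusted p = 0.0788). The median log2 fold change over the 10 genes was 0.44, beside 0.01 over all genes tested. With library sizes set by the 10 adipocyte markers, which lowers the median of all genes by 0.326 on the log2 scale, each of the 10 kept its direction and their median was 0.11.

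**Figure D1:**
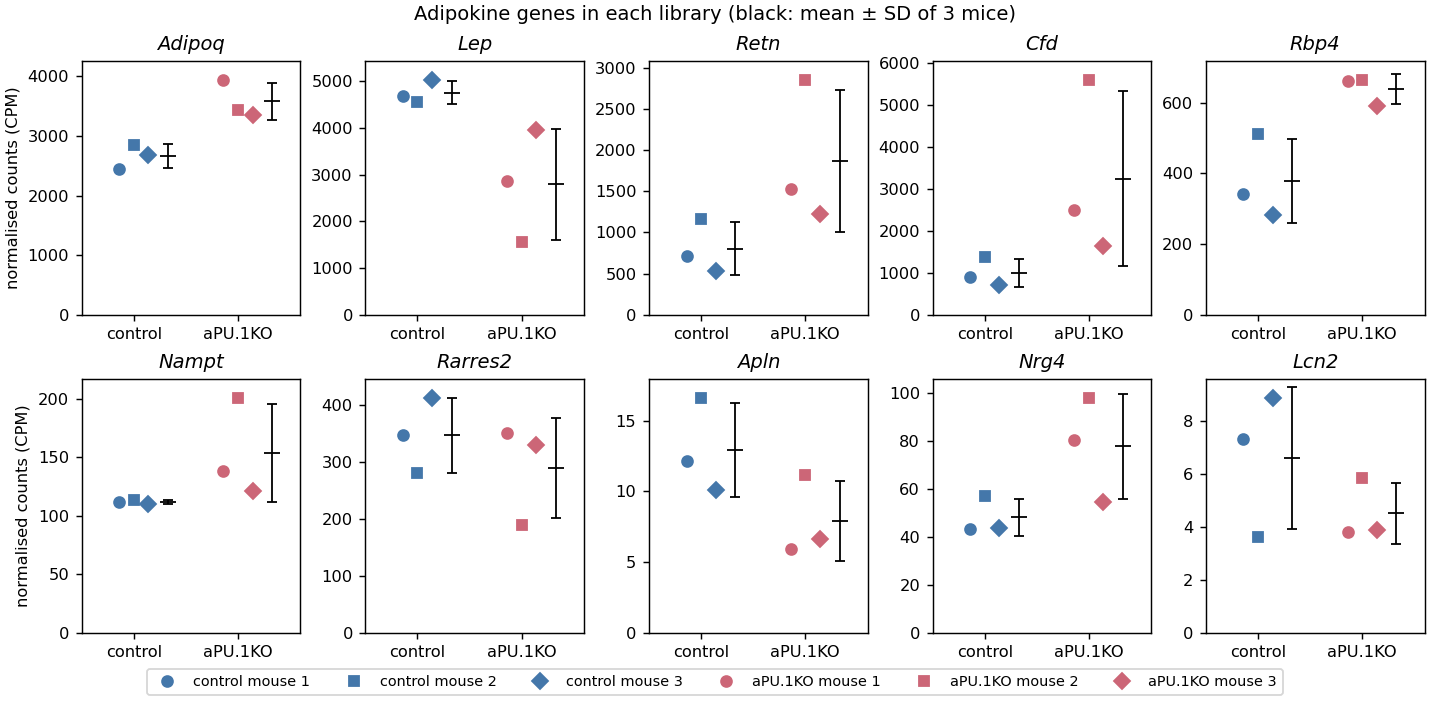
Normalised counts (CPM, linear axes from 0) of the 10 adipokine genes in each library, with one symbol per mouse and the mean ± SD of 3 mice in black. The groups are apart for Adipoq, Lep, Retn, Cfd, Rbp4 and Nampt. aPU.1KO mouse 2 is the highest library for Retn, Cfd, Nampt and Nrg4 and the lowest for Lep and Rarres2. It is also the highest for Rbp4, at 664.2 CPM beside 661.3 CPM in aPU.1KO mouse 1.

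Leptin was the 1 adipokine gene with lower counts in every aPU.1KO mouse. Lep (ENSMUSG00000059201, chromosome 6, 29060220 to 29073877, plus strand, GRCm38) had 4674, 4551 and 5029 CPM in control mice 1, 2 and 3 and 2855, 1565 and 3949 CPM in aPU.1KO mice 1, 2 and 3. The controls lay close together while the aPU.1KO mice were spread widely, with mouse 2 lowest. The log2 fold change was -0.77 (SE 0.32, 95% interval -1.52 to -0.02, edgeR adjusted p = 0.188, DESeq2 adjusted p = 0.0628). Without aPU.1KO mouse 2 the log2 fold change was -0.49 (edgeR adjusted p = 0.176), and without aPU.1KO mouse 3 it was -1.10 (edgeR adjusted p = 0.0968).

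Adiponectin differed in the other direction, by less and with less spread between mice. Adipoq (ENSMUSG00000022878, chromosome 16, 23146536 to 23158028, plus strand) had 2448, 2847 and 2685 CPM in the control mice and 3943, 3443 and 3359 CPM in the aPU.1KO mice. The means were 2660 ± 201 CPM (SD, n = 3) and 3582 ± 316 CPM (SD, n = 3), a log2 fold change of 0.43 (SE 0.13, 95% interval 0.11 to 0.75) that DESeq2 called (adjusted p = 0.00446) and edgeR did not (adjusted p = 0.115). Leaving out each mouse in turn kept it between 0.34 and 0.48. With library sizes set by the adipocyte markers the log2 fold change of Adipoq was 0.11 (95% interval -0.19 to 0.40), an interval that spans 0.

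The ratio of Adipoq to Lep within a library needs no library scaling. It was 0.524, 0.626 and 0.534 counts of Adipoq per count of Lep in the control mice and 1.38, 2.20 and 0.851 in the aPU.1KO mice. All 3 aPU.1KO libraries were above the controls. These are counts not divided by transcript length, so the ratio is compared between mice and does not say which transcript is more abundant. The mean log2 ratio differed by 1.29 (exact permutation test, two-sided p = 0.1, adjusted p = 0.1 over 2 such tests), and 0.1 is the smallest p that 3 against 3 mice can give. Without aPU.1KO mouse 2 the difference was 0.95.

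**Figure D2:**
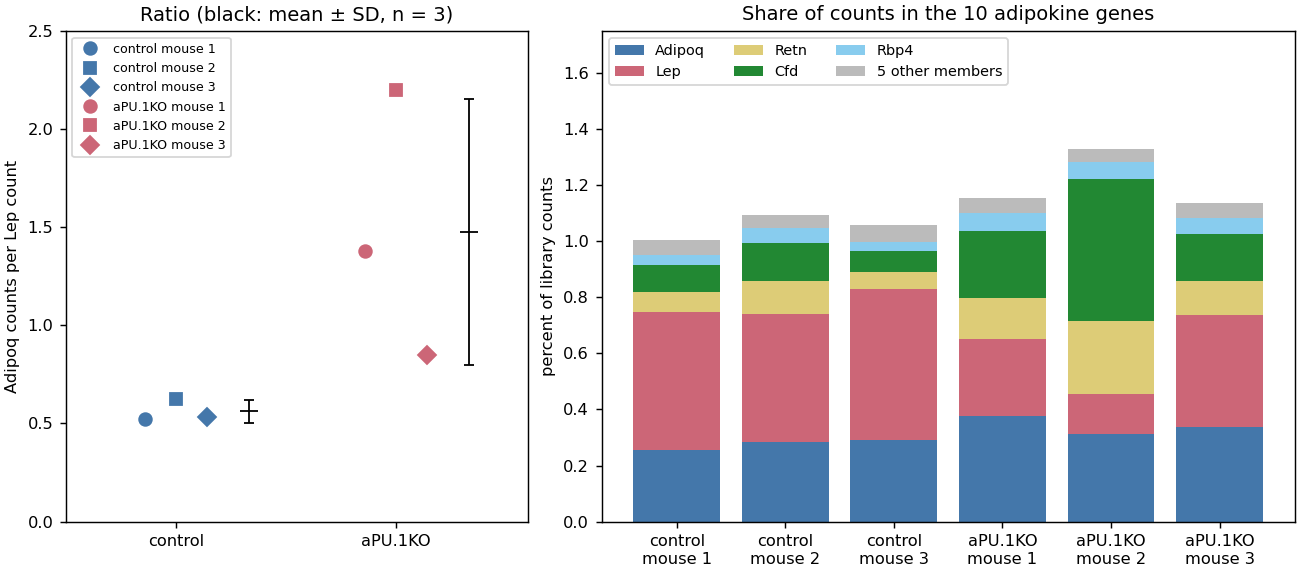
Left, counts of Adipoq per count of Lep in each library, with the mean ± SD of 3 mice in black. Right, percent of all counts of a library that fell on the 10 adipokine genes, stacked by gene, where the Lep segment is smaller and the Cfd segment larger in all 3 aPU.1KO libraries.

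Complement factor D had the largest log2 fold change of the 10 genes by edgeR with TMM factors and by DESeq2. Cfd (ENSMUSG00000061780, chromosome 10, 79890853 to 79892655, plus strand) had 895.8, 1367 and 716.3 CPM in the control mice and 2498, 5595 and 1640 CPM in the aPU.1KO mice. aPU.1KO mouse 2 was far above all other libraries, and control mouse 2 was the highest control. The groups differed by a log2 fold change of 1.71 (SE 0.48, 95% interval 0.57 to 2.85, edgeR adjusted p = 0.101, DESeq2 adjusted p = 0.0405). Without aPU.1KO mouse 2 it was 1.06 (edgeR adjusted p = 0.138).

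Resistin followed the same order of libraries. Retn (ENSMUSG00000012705, chromosome 8, 3655770 to 3660110, plus strand) had 707.8, 1160 and 534.8 CPM in the control mice and 1531, 2852 and 1222 CPM in the aPU.1KO mice. In both groups mouse 2 was highest and mouse 3 lowest, as for Cfd. The log2 fold change was 1.22 (SE 0.40, 95% interval 0.28 to 2.17, edgeR adjusted p = 0.123, DESeq2 adjusted p = 0.0134), and it was 0.78 without aPU.1KO mouse 2. Counts of Cfd per count of Retn were 1.27, 1.18 and 1.34 in control mice and 1.63, 1.96 and 1.34 in aPU.1KO mice, a ratio that was computed after the values of both genes had been seen.

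Rbp4 encodes the plasma carrier of retinol, which is secreted by liver and fat. Rbp4 (ENSMUSG00000024990, chromosome 19, 38116629 to 38125281, minus strand) had 341.6, 509.8 and 282.2 CPM in the control mice and 661.3, 664.2 and 589.0 CPM in the aPU.1KO mice. Here the aPU.1KO mice were close together and the controls were spread, with control mouse 2 nearest the aPU.1KO mice. The groups differed by a log2 fold change of 0.76 (SE 0.21, 95% interval 0.25 to 1.27, edgeR adjusted p = 0.102, DESeq2 adjusted p = 0.0122). Without control mouse 2 the log2 fold change was 1.02 and edgeR called it (adjusted p = 0.0100), in a fit that called 8.34% of all genes.

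The order of the libraries for Retn, Cfd and Rbp4 was, among the controls, the reverse of their Spi1 order. That order was read after the values were seen, and how many other genes share it was not counted. Control mouse 2, with the lowest macrophage marker sum and the lowest Spi1 of the controls, was the highest control for all 3 genes. When a score over the macrophage markers entered the edgeR fit as a covariate, the log2 fold change was 0.06 (95% interval -1.44 to 1.56) for Retn, 0.03 (95% interval -0.61 to 0.67) for Rbp4 and 0.54 (95% interval -1.61 to 2.69) for Cfd. In the same fit it was 0.26 for Adipoq and -0.46 for Lep, and no adipokine gene passed (edgeR adjusted p = 0.9999 for each of these 5). This fit called 0 of all genes, with 315 at an unadjusted p under 0.05, so that a gene not passing says nothing particular about it. Spi1, the targeted gene, had a log2 fold change of -0.04 (95% interval -1.57 to 1.48) with the covariate, beside -2.75 without it. The score differs between the groups, so that genotype and macrophage RNA cannot be told apart by this fit.

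**Figure D3:**
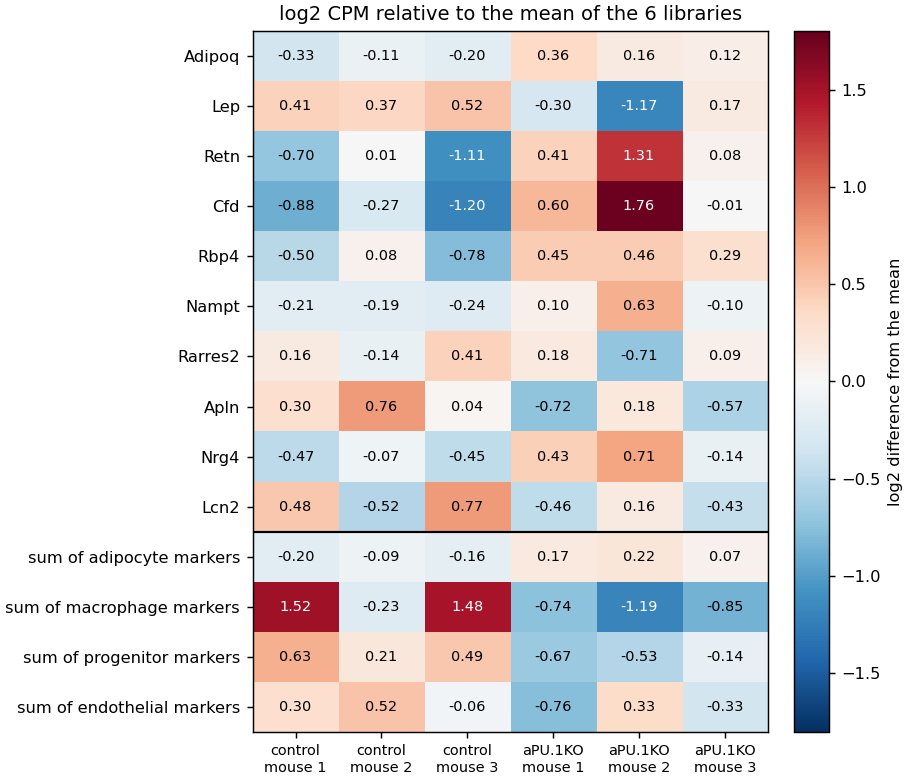
log2 CPM of each adipokine gene (above the line) and of the summed markers of 4 cell types (below it) in each library, as the difference from the mean of the 6 libraries. Control mouse 2 has a macrophage marker sum of -0.23, between the other controls at 1.52 and 1.48 and the aPU.1KO mice at -0.74 to -1.19.

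NAMPT makes the NAD precursor nicotinamide mononucleotide inside cells and is also secreted as visfatin. Nampt (ENSMUSG00000020572, chromosome 12, 32819545 to 32853349, plus strand) had 111.9, 113.5 and 109.7 CPM in the control mice and 138.4, 200.7 and 120.9 CPM in the aPU.1KO mice. The controls were almost equal, and aPU.1KO mouse 2 stood above the other libraries. The log2 fold change was 0.46 (SE 0.18, 95% interval 0.03 to 0.89, edgeR adjusted p = 0.177, DESeq2 adjusted p = 0.123). It was 0.21 without aPU.1KO mouse 2 and 0.12 with library sizes set by the adipocyte markers.

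Neuregulin 4 is an EGF family ligand released by fat that acts on ErbB receptors of the liver. Nrg4 (ENSMUSG00000032311, chromosome 9, 55220222 to 55326844, minus strand) had 43.3, 56.9 and 43.8 CPM in the control mice and 80.5, 97.9 and 54.4 CPM in the aPU.1KO mice. aPU.1KO mouse 3 lay below the highest control, so the groups overlapped. The groups differed by a log2 fold change of 0.69 (SE 0.22, edgeR adjusted p = 0.119, DESeq2 adjusted p = 0.0377). It was 0.36 (95% interval -0.05 to 0.77) with adipocyte marker scaling and 0.13 with the macrophage score as covariate. Exons of Nrg4 share 368 bases with Fbxo22 and 177 bases with the pseudogene Gm15625 on the opposite strand, and whether counting used strand is not given in the sources used here, so reads of these genes may be mixed.

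Apelin is the ligand of the receptor APJ, which is found on vessels and heart muscle. Apln (ENSMUSG00000037010, chromosome X, 48025146 to 48034853, minus strand) had 12.1, 16.6 and 10.1 CPM in the control mice and 5.95, 11.2 and 6.63 CPM in the aPU.1KO mice. The highest aPU.1KO mouse was above the lowest control. The log2 fold change was -0.71 (SE 0.29, edgeR adjusted p = 0.189, DESeq2 adjusted p = 0.108). With library sizes set by the adipocyte markers it was -1.03 (edgeR adjusted p = 0.0369, in a fit that called 20.6% of all genes). With the macrophage score as covariate it was -1.49 (95% interval -2.61 to -0.37, edgeR adjusted p = 0.9999). The endothelial markers summed to 549.4, 638.9 and 429.1 CPM in the control mice and to 262.9, 559.8 and 353.6 CPM in the aPU.1KO mice, so that within each group the libraries took the same order for Apln and for these markers. This match of order was read after the values were seen, and how many other genes share it was not counted. The part of endothelial RNA in the Apln difference was not tested.

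Chemerin and lipocalin 2 were called by neither edgeR nor DESeq2. Rarres2, which encodes the chemoattractant chemerin (ENSMUSG00000009281, chromosome 6, 48569696 to 48572789, minus strand), had 346.5, 280.9 and 412.4 CPM in the control mice and 350.4, 188.9 and 330.0 CPM in the aPU.1KO mice, a log2 fold change of -0.26 (SE 0.25, edgeR adjusted p = 0.555). Leaving out aPU.1KO mouse 2 gave -0.03 and leaving out aPU.1KO mouse 1 gave -0.43. When control mouse 3 was left out it was -0.12, and when control mouse 2 was left out it was -0.40. The exons of Rarres2 share 892 bases with Lrrc61 on the opposite strand. Lcn2, which encodes an iron-scavenging protein that neutrophils also make (ENSMUSG00000026822, chromosome 2, 32384633 to 32388252, minus strand), had 7.31, 3.63 and 8.88 CPM in the control mice and 3.81, 5.83 and 3.88 CPM in the aPU.1KO mice, a log2 fold change of -0.55 (SE 0.35, edgeR adjusted p = 0.362). In both genes the control and aPU.1KO libraries were intermixed, and with the macrophage score as covariate the log2 fold change was above 0, at 0.37 for Rarres2 and 0.63 for Lcn2. Lcn2 had a log2 fold change of -0.85 without control mouse 2 (edgeR adjusted p = 0.0926), of -0.30 without control mouse 3 (edgeR adjusted p = 0.700) and of -0.91 with adipocyte marker scaling (edgeR adjusted p = 0.102). The 7 neutrophil markers summed to between 19.1 and 39.2 CPM in control and between 11.4 and 18.5 CPM in aPU.1KO mice, and their part in the Lcn2 values was not tested. Most of this sum was S100a8, at 25.5 ± 8.97 CPM (SD, n = 3) in control and 12.8 ± 3.52 CPM (SD, n = 3) in aPU.1KO mice, while Retnlg had 0 counts in every library, Ly6g at most 1, Mpo at most 4 and S100a9 at most 15. Csf3r had a log2 fold change of -1.36 (SE 0.55, edgeR adjusted p = 0.183). That of Cxcr2 was 0.29 (SE 0.50, edgeR adjusted p = 0.743).

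**Figure D4:**
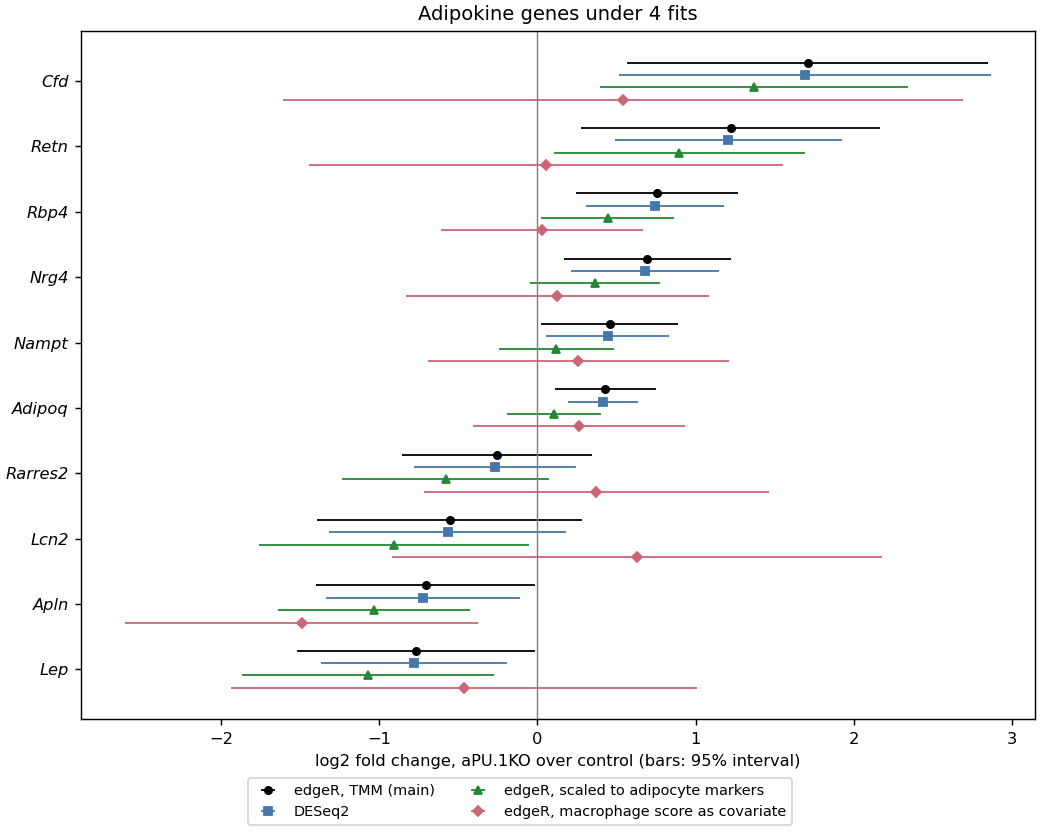
log2 fold change of each adipokine gene, aPU.1KO over control, with 95% intervals, under 4 fits (edgeR with TMM factors, DESeq2, edgeR with library sizes set by adipocyte markers, and edgeR with a macrophage score as covariate). The covariate fit has the widest intervals, and it places Rarres2 and Lcn2 above 0, where the other 3 fits place them below 0.

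The 10 genes span a wide range of levels, which is compared here as CPM per kilobase of the longest coding transcript. In the control mice the order of the group means was Adipoq (2059), Lep (1458), Cfd (1077), Retn (703), Rarres2 (436), Rbp4 (326), Nrg4 (24.9), Nampt (24.7), Lcn2 (7.22) and Apln (4.11). Adipoq stood apart from Lep, Rbp4 from Nrg4, and Nampt from Lcn2, while the ranges over the 3 control mice overlapped for every other pair of neighbours. In the aPU.1KO mice the order of the means began with Cfd (3518 ± 2256, SD, n = 3), Adipoq (2772 ± 245, SD, n = 3), Retn (1640 ± 760, SD, n = 3) and Lep (856 ± 366, SD, n = 3). There the ranges of Cfd and Adipoq overlapped, as did those of Retn and Lep. The lead of Cfd rested on aPU.1KO mouse 2, at 6068, and in mice 1 and 3 Adipoq (3052 and 2600) was above Cfd (2709 and 1778). Among 21767 genes the rank of Lep was 30 in control and 47 in aPU.1KO mice, or 36 without aPU.1KO mouse 2, and that of Cfd was 33 and 13, or 21 without that mouse, a value added after the data were seen. With lengths taken over all exons of a gene, the leading 4 kept their order in the control mice, Rbp4 came before Rarres2, Nampt before Nrg4 and Apln before Lcn2.

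The 10 genes together took 1.00%, 1.09% and 1.06% of all counts in the control mice and 1.16%, 1.33% and 1.14% in the aPU.1KO mice. All 3 aPU.1KO mice were above the controls, by 0.155 percentage points on average (exact permutation test, two-sided p = 0.1, adjusted p = 0.1 over 2 such tests), and by 0.0931 without aPU.1KO mouse 2. Within this sum the mean share of Lep went from 0.496% to 0.271% and that of Cfd from 0.103% to 0.305%. The summed adipocyte markers given above were also higher in all 3 aPU.1KO mice, and their part in the share of the 10 genes was not tested.

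The receptors and partners of the adipokines were examined as a list of 40 symbols, of which 38 were in the table and 37 were tested. edgeR called 1 of the 37 (0.237% of all genes), DESeq2 called 2 higher (4.69% of all genes) and 8 lower (8.73% of all genes), and an unadjusted p under 0.05 was reached by 3 higher (11.9% of all genes) and 10 lower genes (13.7% of all genes). The median log2 fold change of the list was -0.08, beside 0.01 over all genes tested. The adiponectin receptors did not pass either test, with a log2 fold change of 0.08 (SE 0.07, edgeR adjusted p = 0.535) for Adipor1, which was below 0 with adipocyte marker scaling, and 0.35 (SE 0.16, edgeR adjusted p = 0.232) for Adipor2. Lepr, the leptin receptor, was low, at 0.833 to 1.43 CPM in control and 0.332 to 0.859 CPM in aPU.1KO mice.

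The apelin receptor was lower in all 3 aPU.1KO mice. Aplnr had 25.9, 24.5 and 25.9 CPM in the control mice and 9.76, 15.1 and 13.3 CPM in the aPU.1KO mice, with no overlap between the groups. Its log2 fold change was -1.002 (SE 0.16, edgeR adjusted p = 0.0718, DESeq2 adjusted p = 7.52e-06). It is a receptor of endothelial cells, whose markers are given above, and their part in this difference was not tested.

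Of the genes that work with factor D in complement, 3 of 4 were called lower by DESeq2, which called 8.73% of all genes lower, and Cfd was called higher. C3, the central complement protein, named here after its values were seen, had 1435, 724.5 and 1812 CPM in the control mice and 705.7, 414.8 and 597.5 CPM in the aPU.1KO mice (log2 fold change -1.21, SE 0.35, DESeq2 adjusted p = 0.00495). Cfp, encoding properdin, which stabilises the alternative pathway convertase, had a log2 fold change of -1.18 (SE 0.25, DESeq2 adjusted p = 0.000464). C3ar1, the receptor of the C3a fragment, which is carried by macrophages, had a log2 fold change of -2.70 (SE 0.63, DESeq2 adjusted p = 0.00499) and 68.1, 14.1 and 62.7 CPM in the control mice, where mouse 2 was again lowest. The edgeR test called none of the 4, with 3 at an unadjusted p under 0.05, all lower (13.7% of all genes). The macrophage marker sum moved with these genes, and its part in them was not tested.

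Of the 3 chemerin receptors, Cmklr1 had a log2 fold change of 0.27 (SE 0.13, edgeR adjusted p = 0.239) that turned below 0 with adipocyte marker scaling, and Gpr1 had 1.14 CPM or less in every library. Ccrl2, a receptor that binds chemerin without signalling, had 15.3, 5.12 and 14.04 CPM in control and 4.17, 2.03 and 4.31 CPM in aPU.1KO mice (log2 fold change -1.72, SE 0.47, DESeq2 adjusted p = 0.00433). Control mouse 2 was the lowest control for Ccrl2 as for the macrophage marker sum, whose part in this difference was not tested. Cap1, which has been described as a resistin receptor, had a log2 fold change of -0.42 (SE 0.12, DESeq2 adjusted p = 0.0212). The ErbB receptors of neuregulin 4, Erbb3 and Erbb4, had 1.85 CPM or less in every library, and the lipocalin 2 receptors Slc22a17 and Lrp2 had log2 fold changes of 0.16 (SE 0.13) and 0.03 (SE 0.39), both below 0 with adipocyte marker scaling.

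For the partners of RBP4, Stra6, the retinol uptake receptor, had at most 4 counts in any library and was not tested. Ttr, encoding transthyretin, which carries RBP4 in plasma and is made mainly by liver and choroid plexus, was the 1 gene of this list that edgeR called (adjusted p = 0.0448), and it falls below the level set for naming genes. It had 160, 61 and 49 counts in the control mice and 0, 0 and 2 counts in the aPU.1KO mice. The 8 hepatocyte markers, among them Alb, summed to between 41.5 and 63.8 CPM in control and between 18.9 and 27.8 CPM in aPU.1KO mice. Most of this sum was Alb, with a log2 fold change of -0.865, while the median of the 8 markers was -2.59. Fgb had 0 counts in every aPU.1KO mouse, and the groups overlapped for Apoc3. The part of these markers in the Ttr difference was not tested.

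In the NAD pathway around NAMPT all 6 genes had log2 fold changes above 0, as did 7242 of all 13925 genes, and DESeq2 called 2 of them (4.69% of all genes higher). With adipocyte marker scaling 5 of the 6 were above 0. Nmnat3, which makes NAD from the product of NAMPT, had 5.45, 4.38 and 5.28 CPM in the control mice and 10.5, 13.5 and 7.44 CPM in the aPU.1KO mice (log2 fold change 1.05, SE 0.24, edgeR adjusted p = 0.0786, DESeq2 adjusted p = 0.00245). Nmrk1, a kinase that feeds nicotinamide riboside into NAD synthesis, had a log2 fold change of 0.61 (SE 0.15, edgeR adjusted p = 0.0875, DESeq2 adjusted p = 0.0158). Both lay wholly above the controls, as Nampt did. Of the 5 genes tested for assembly and processing of adipokines, Gstk1 (DsbA-L), which promotes the assembly of adiponectin multimers, had a log2 fold change of 0.23 (SE 0.08, edgeR adjusted p = 0.130, DESeq2 adjusted p = 0.134), which was below 0 with adipocyte marker scaling. Neither tool called any of the 5, and by edgeR an unadjusted p under 0.05 was reached by 1 higher (11.9% of all genes) and 1 lower gene (13.7% of all genes).

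**Figure D5:**
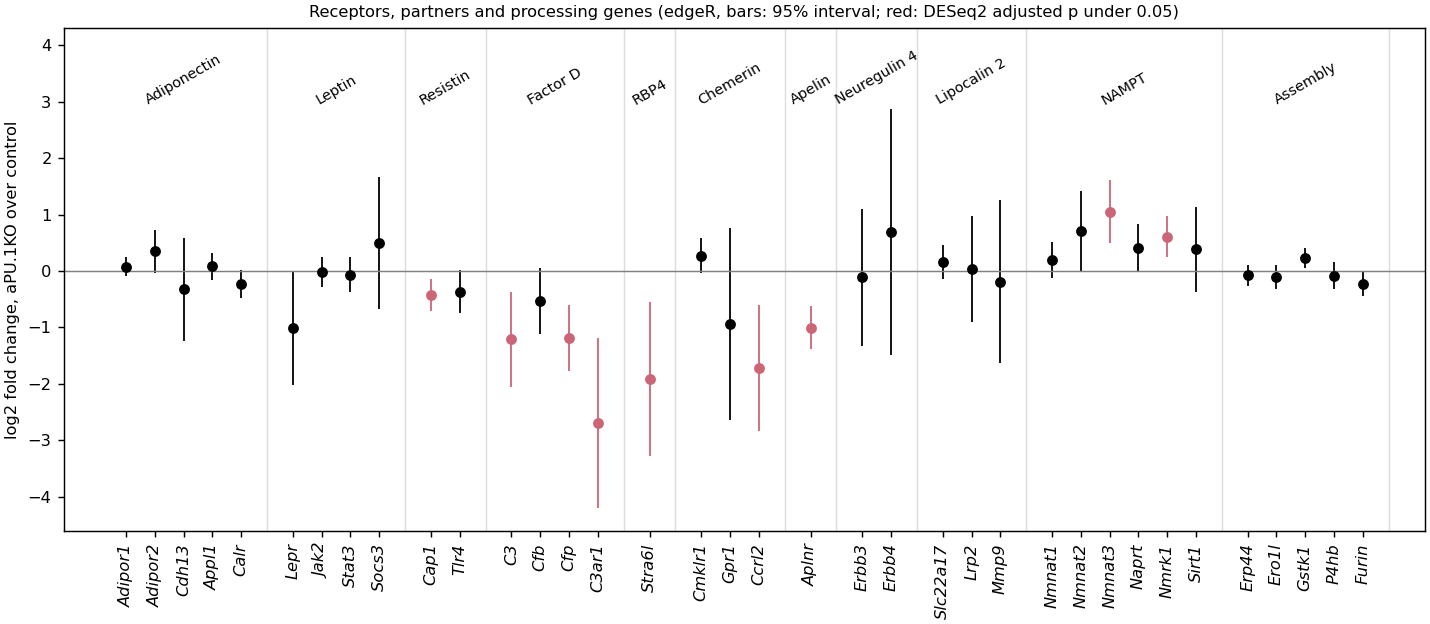
log2 fold change (aPU.1KO over control, edgeR, with 95% intervals) of the 36 tested receptor, partner and processing genes other than Ttr, grouped by the adipokine they serve, with red for a DESeq2 adjusted p under 0.05. The red points below 0 are Cap1, C3, Cfp, C3ar1, Stra6l, Ccrl2 and Aplnr, and those above 0 are Nmnat3 and Nmrk1.

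The relatives of adiponectin, which share its C1q domain, mostly had log2 fold changes below 0. Of the 14 listed, 9 were tested and 8 were below 0, as were 6683 of all 13925 genes. The median was -0.60, beside 0.01 over all genes tested. Among the 8, C1qtnf7 (-0.03) and C1qtnf1 (-0.12) were near 0, with overlapping groups. DESeq2 called 3 lower (8.73% of all genes) and edgeR called 0 (0.237% of all genes), while 1 higher (11.9% of all genes) and 3 lower genes (13.7% of all genes) had an unadjusted p under 0.05. The 3 called by DESeq2 were Emilin1 (log2 fold change -1.14, SE 0.22), C1qtnf6 (-1.36, SE 0.29) and C1qtnf5 (-0.97, SE 0.21), and C1qtnf12 (adipolin), an adipocyte hormone, had a log2 fold change of 0.48 (SE 0.16, edgeR adjusted p = 0.120, DESeq2 adjusted p = 0.0605). The 9 progenitor markers had log2 fold changes below 0 in 9 of 9 cases, and their part in these values was not tested.

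Of the 15 listed relatives of resistin and the lipocalins, 7 were tested. Retnla, the resistin-like gene of activated macrophages, overlapped between the groups, at 36.0, 74.5 and 12.9 CPM in control and 14.3, 43.9 and 32.7 CPM in aPU.1KO mice. Mup20, a major urinary protein of liver that serves as a male pheromone, fell from 645, 225 and 236 counts in the control mice to 1, 0 and 2 counts in the aPU.1KO mice (edgeR adjusted p = 0.00371). Mup genes are near-identical copies, so how the counting split reads among them is uncertain. The hepatocyte marker sum was lower in the same mice, and its part in Mup20 was not tested. Orm1, an acute phase lipocalin, had a log2 fold change of 0.28 (SE 0.09, DESeq2 adjusted p = 0.0446) that was below 0 with adipocyte marker scaling.

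Among 28 other secreted adipose proteins that were tested (of 35 listed), edgeR called 1 (0.237% of all genes) and DESeq2 called 3 higher (4.69% of all genes) and 7 lower (8.73% of all genes). Their median log2 fold change was -0.30, beside 0.01 over all genes tested. The gene edgeR called was Fbn1, encoding fibrillin 1, the precursor of the fasting hormone asprosin, which fell from 82.2, 73.8 and 50.7 CPM to 17.1, 20.3 and 17.6 CPM (log2 fold change -1.91, SE 0.19, edgeR adjusted p = 0.0268). Those that DESeq2 called higher included Vegfa, an angiogenic factor (log2 fold change 0.90, SE 0.19), and Apoe, a lipoprotein component (0.51, SE 0.17). Those with the lowest p among the lower genes were, after Fbn1, the cytokine genes Tnf (-1.71, SE 0.36) and Tgfb1 (-0.61, SE 0.17), Grn, encoding progranulin (-0.68, SE 0.19), and Metrnl (-1.42, SE 0.40), which DESeq2 called as well. The macrophage and progenitor marker sums were lower in the same mice, and their part in these 5 genes was not tested.

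Most of the listed transcription factors known to act on adipokine genes had a log2 fold change above 0 by edgeR with TMM factors. Of 10 listed and tested, 9 were above 0, as were 7242 of all 13925 genes. The median was 0.34, beside 0.01 over all genes tested. DESeq2 called 4 higher (4.69% of all genes) and 0 lower (8.73% of all genes), while edgeR called 0 (0.237% of all genes). An unadjusted p under 0.05 was reached by 5 of the 10, all higher (11.9% of all genes). Cebpa, which is needed for full adipocyte gene expression, had 656.9, 700.3 and 690.6 CPM in the control mice and 851.6, 922.3 and 854.8 CPM in the aPU.1KO mice (log2 fold change 0.36, SE 0.09, DESeq2 adjusted p = 0.000218). Srebf1 (0.59, SE 0.14), Klf15 (0.43, SE 0.09) and Nr1h3 (0.34, SE 0.08) were the others called by DESeq2, and Pparg had 0.34 (SE 0.14, DESeq2 adjusted p = 0.166). With adipocyte marker scaling 5 of the 10 were above 0 and 5 below, and the median was 0.004. Pparg is itself 1 of the adipocyte markers.

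Genes whose profiles over the 6 libraries were most like those of 3 adipokines were named by the mean absolute difference of centred log2 CPM among 11897 genes. Closest to Adipoq were Fam213a (0.0263), Selenbp1 (0.0311) and Pithd1 (0.0341), and closest to Lep were Sorbs2 (0.0708), Mxra8 (0.0776) and Fzd2 (0.0812). Closest to Apln were Pcdh17 (0.0708), Nrarp (0.0724) and Kit (0.0778). The differences are larger for Lep and Apln than for Adipoq, whose own profile is flatter.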

How the data were processed

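RNA of the adipocyte fraction was measured in 6 libraries, 1 per mouse. The authors quantified reads with Salmon (option validateMappings), summed transcript values to genes and deposited estimated counts without normalization. They are whole numbers, so no rounding was needed. The submitters' processing notes name GRCm38, Salmon and FastQC. The Salmon version, annotation and strand setting are not given in the sources used here. Symbols and coordinates are from GENCODE M21 (GRCm38), which matched 35031 of 35122 identifiers. Of the symbols listed, Ero1a, Pcsk3 and Wisp2 were not in the table under these names.

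Libraries were grouped by genotype as labelled. Within a group no library was a duplicate of another: the smallest chi-square divided by its degrees of freedom between 2 libraries of a group was 19.0. Libraries of different groups were not compared in this way. The paper describes littermate controls, but the litter of each mouse is not given in the sources used here, and p-values measure the spread between these mice. The test was edgeR 4.0.16 in R 4.3.3 (low counts removed by filterByExpr, TMM factors, then glmQLFit and glmQLFTest, Benjamini-Hochberg over 13925 genes, called at an adjusted p under 0.05), and each SE is the coefficient over the root of F. Log2 fold changes compare aPU.1KO with control. DESeq2 1.42.0, limma-voom (limma 3.58.1), other scalings and filters, a macrophage covariate and leaving out each mouse were alternatives. Depth was 20550252 to 69283842 counts a library, and the member with the fewest, Lcn2, had 75 to 531 counts. Ratios and shares were tested by exact permutation with scipy 1.17.1, and figures were drawn with matplotlib 3.10.9.

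The members and gene lists were chosen with earlier results of these data known. Named genes are the members, Spi1, receptors, and up to 5 genes of a list in each direction by p, with an unadjusted p under 0.05 and an average log2 CPM of at least 1. Genes most like Adipoq, Lep and Apln are the 3 closest profiles. Results for some genes that meet this rule are left out of the text. Some genes outside it are named as well, among them Retnla, C3, Ttr, C1qtnf1, C1qtnf7 and cell type markers.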

Additional observations from a re-analysis of the deposited data

How the results depend on the processing

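Of 170 values of single adipokine genes under alternatives, 161 kept their direction and their side of the threshold, 7 passed it newly and 2 reversed. DESeq2 called Adipoq (log2 fold change 0.42), Retn (1.21), Cfd (1.69), Rbp4 (0.74) and Nrg4 (0.68), scaling to adipocyte markers called Apln (-1.03), and leaving out control mouse 2 called Rbp4. Rbp4 ranged from 0.58 to 1.02 with a mouse left out. With the macrophage covariate Rarres2 (0.37) and Lcn2 (0.63) reversed. The median log2 fold change of the 10 genes was 0.11 with scaling to adipocyte markers.

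The count of adipokine genes called, 0 in the reported edgeR fit (8 at an unadjusted p under 0.05), was 5 with DESeq2, 1 with scaling to adipocyte markers and 0 to 1 with a mouse left out. Counts over all genes, 33 as reported, were 1869 with DESeq2, 2873 with scaling to adipocyte markers (37 higher and 2836 lower), 146 with no filter, 5 with at least 10 counts in every library, 0 with the covariate in edgeR (315 at an unadjusted p under 0.05) and 0 to 1193 with a mouse left out, the highest without control mouse 2 and the lowest without control mouse 1. Receptors and partners called, 1 as reported, were 10 with DESeq2, 14 with scaling to adipocyte markers, 2 with no filter, 0 with at least 10 counts, 0 with the covariate and 0 to 8 with a mouse left out. Related and other secreted genes called, 2 as reported, were 15 with DESeq2, 15 with scaling to adipocyte markers, 1 with at least 10 counts, 0 with the covariate and 0 to 16 with a mouse left out. The cause was not tested.

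No paired analysis was possible because the groups share no replicate numbers in the labels. With 3 mice per group the intervals are wide, and thinning the deepest library, control mouse 1, left Apln at -0.74 and Lcn2, the member with the fewest counts, at -0.56.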
